A study of Mus musculus with 2 samples.

Results

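Macrophages with transcripts of inducible nitric oxide synthase (Nos2), the chemokine Cxcl9, complement factor B (Cfb) or the fatty acid receptor Gpr84 were picked out of the immune cells of MC38 tumours, a mouse colon carcinoma. A barcode, which stands for 1 cell, belonged to this population when 5 conditions on its unique molecular identifiers (UMIs, counts of captured transcripts) were met. C1qa, C1qb and C1qc made up at least 0.1% of its UMIs, Cd3d, Cd3e and Cd3g together had at most 1 UMI, and Nos2, Cxcl9, Cfb and Gpr84 together had at least 2. Folr2, Cbr2 and Fcrls together had at most 1, as had Mki67 and Top2a. In all, 764 of 25200 barcodes met these conditions, 753 in the control library and 11 in the PBM library. These 15 genes chose the cells, so their levels are a description of the choice.

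The tumours grew under the skin of wild-type C57BL/6 mice. The PBM group received photobiomodulation, a treatment with light, every day from day 7, and the control group is labelled only as control. Tumours of both groups were taken on day 14, and CD45-positive cells, which are leukocytes, were sorted and pooled within each group before 1 library was made per group. The number of mice behind each pool is not given in the sources used here. Treatment, pool and library cannot be told apart, there is no replicate, and no test between groups was possible.

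C1q, made of the products of C1qa, C1qb and C1qc, starts the classical complement pathway and in mouse tumours marks macrophages. Nos2 makes nitric oxide from arginine in macrophages exposed to interferon-gamma and microbial or inflammatory signals, while Arg1 breaks arginine down to ornithine and urea. Cxcl9 is induced by interferon-gamma and draws T cells that carry its receptor, Cxcr3. Cfb is part of the alternative pathway of complement, and Gpr84 responds to medium-chain fatty acids and increases in inflamed macrophages.

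The control library held 11238 barcodes and 104673228 UMIs, with a median of 5621.5 UMIs per barcode. The PBM library held 13962 barcodes and 86159897 UMIs, with a median of 5143.5. The libraries share 1991 barcode names, but these are cell numbers and not sequences. All intervals are exact 95% intervals that cover counting error only, binomial for shares and Poisson for levels. A level is the summed UMIs of a gene over a class of cells per 1000000 summed UMIs of that class (CPM).

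The control members made up 6.70% of barcodes (interval 6.25 to 7.18) and 30.9% of the 2436 C1q-positive cells (29.1 to 32.8). The other 1683 C1q-positive control cells fell into 3 classes. In 613 resident-like cells Folr2, Cbr2 and Fcrls reached 2 UMIs or more, 239 cycling cells had 2 or more of Mki67 and Top2a, and 831 cells met neither of these conditions and had a sum of Nos2, Cxcl9, Cfb and Gpr84 under 2. These 831 cells were shallow, with a median of 3680 UMIs against 8784 in the members, and 220 of them had under 2000. A sum under 2 in them need not mean that the genes are off. The part of depth in comparisons with them was not tested. Monocytes were 1358 control barcodes (12.1%) with C1q genes under 0.1%, with Csf1r, Ms4a6c and Lyz2 at 0.1% of UMIs or more and with at least 2 UMIs of Ly6c2 and Ccr2. In the PBM library C1q-positive cells were 0.272% of barcodes against 21.7% in the control, so the 11 PBM members were 0.0788% of barcodes (0.0393 to 0.141) but 28.9% of the C1q-positive cells (15.4 to 45.9). These shares describe 1 library each and were not compared by a test.

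The macrophage label was checked on genes that the rule does not use. Csf1r, the receptor for the growth factor CSF1, stood at 414 CPM in the control members and 355 CPM in the other C1q-positive cells. Adgre1, which encodes F4/80, stood at 48.9 and 83.3 CPM, and the lysosomal protein gene Cd68 at 391 and 572 CPM. All 3 were present in both, with Adgre1 and Cd68 lower in the members. C1qa itself, a gene of the rule, was lower in the members at 2082 CPM than in the other C1q-positive cells at 2895 CPM.

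Cxcl9 dominated the choice of the cells. It had a UMI in 579 of the 753 control members (76.9%) and supplied 70.2% of the UMIs of the 4 summed genes. Cfb had a UMI in 423 members (56.2%), Nos2 in 300 (39.8%) and Gpr84 in 288 (38.2%). Without Cxcl9 in the sum 530 members (70.4%) would remain, without Cfb 660, without Nos2 679 and without Gpr84 697. Most members held more than 1 of the 4 genes, namely 308 with 2 (40.9%), 185 with 3 (24.6%) and 53 with all 4 (7.04%), while 207 (27.5%) held a single one. The commonest combination was Cxcl9 with Cfb alone, in 131 members.

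The summed UMIs of the 4 genes ran from 2 to 278 per member, with a median of 7. At the threshold stood 128 members with a sum of 2 (17.0%) and 93 with a sum of 3 (12.4%), and 212 members (28.2%) had 16 or more. Just outside it, 238 of the 831 cells of neither class had a sum of 1 and 593 had none. The transcripts were concentrated in few cells: the 10% of members with most UMIs of a gene held 68.1% of its UMIs for Nos2, 58.2% for Cxcl9, 53.8% for Cfb and 57.6% for Gpr84.

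**Figure D1:**
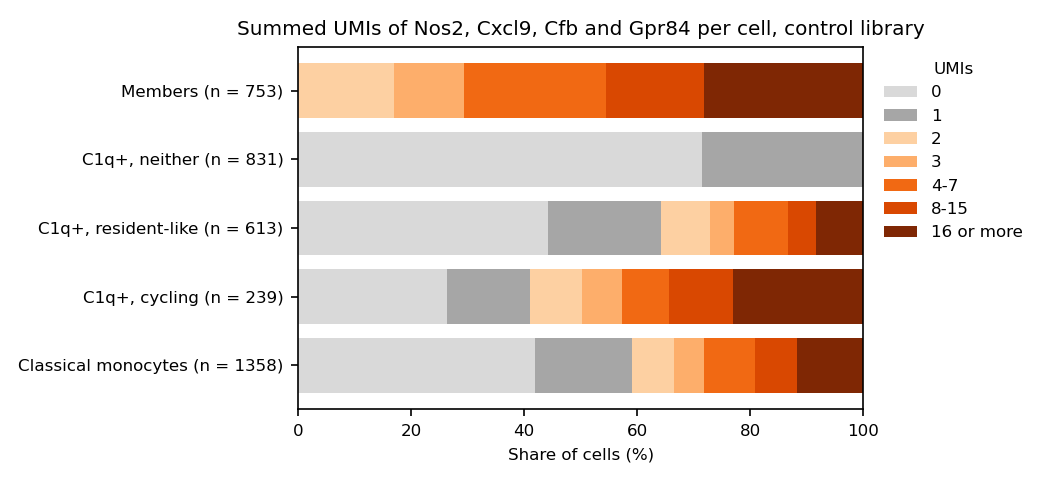
Share of control cells (percent, stacked bars) by the summed UMIs of Nos2, Cxcl9, Cfb and Gpr84, for the members, the other C1q-positive classes and the monocytes. Members start at 2 by the rule, and sums of 2 or more also occur in 35.7% of resident-like cells, 59.0% of cycling cells and 40.9% of monocytes.

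The same transcripts occurred outside the members. A sum of 2 or more was found in 219 of 613 resident-like cells (35.7%), 141 of 239 cycling cells (59.0%) and 556 of 1358 monocytes (40.9%). Members held 26.2% of all Nos2 UMIs of the control library, 21.4% of those of Cxcl9, 28.8% of those of Cfb and 27.4% of those of Gpr84. Of the cells that met the rule in all but the C1q condition, 189 had C1q genes at 0.05 to 0.1% of UMIs and 710 had less, and 117 and 427 of these lay in the monocyte class. Of the members, 131 had C1q genes between 0.1 and 0.2%.

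Cells with at least 3 Cd3 UMIs, T cells that should lack these transcripts, gave the background. A sum of 2 or more was found in 13.4% of them at a median of 5641 UMIs, against a median of 8784 UMIs in the members. After each barcode was thinned to 2000 UMIs, Cxcl9 had a UMI in 54.2% of 701 members and in 8.20% of T cells. The thinned shares in members and T cells were 30.1% and 2.53% for Cfb, 19.3% and 1.93% for Nos2, and 14.8% and 1.06% for Gpr84. The members were chosen on these 4 genes, so the gap to the background describes the choice. C1q genes at 0.1% or more were found in 10.7% of the same T cells, so the C1q condition alone is met by some cells of other types.

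Clec5a and Fpr2 were named with the population but not used to choose the cells. Clec5a, a DAP12-coupled lectin receptor of myeloid cells, stood at 197 CPM in the members (188 to 207), 118 CPM in cells of neither class, 61.0 CPM in resident-like cells and 185 CPM in monocytes. Fpr2, a formyl peptide receptor, stood at 151 CPM (143 to 160.4), 61.7 CPM, 23.9 CPM and 138 CPM in the same order. Of these 4 classes the members had the highest level of both genes and the monocytes the next, and the intervals of members and monocytes overlap. In thinned counts Clec5a had a UMI in 26.1% of members, 16.2% of cells of neither class and 3.10% of T cells, and Fpr2 in 19.4%, 9.66% and 2.00%.

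Gene levels were then compared between the members and the other C1q-positive cells of the control library. A gene was called higher or lower when its level differed at least 2-fold and the 2 intervals did not overlap, among genes with at least 50 UMIs over both groups. Of 10710 genes, 100 were called higher (0.934%) and 477 lower (4.45%), and the median log2 ratio over all of them was -0.07. Such counts over all genes, here and below, include genes of the rule, without which 96 were higher and 472 lower. Members had a higher median depth, 8784 UMIs, than the other C1q-positive cells, 7018 UMIs, and its part in these ratios was not tested. With every barcode of at least 2000 UMIs thinned to that depth and the rule applied anew, 197 genes were lower. The redrawn classes held 679 members among 3074 C1q-positive cells, while 384 of 701 original members kept a sum of 2 or more. Gene counts and list medians in thinned counts, here and below, come from such redrawn classes. Thinned shares of cells with a UMI of a gene keep the original classes. The count of lower genes was 725 with every cell weighted alike. Higher genes numbered 57 without the cluster that held most members. A first group of genes higher in the members belonged to interferon-gamma responses and antigen presentation, and a second to inflammatory cytokines and acute-phase genes, while genes of resident and alternatively activated macrophages were lower.

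Of 33 genes of the interferon-gamma response list, 29 could be compared and all 29 lay above 0, with a median log2 ratio of 0.77 and 8 called higher. Ciita, which switches on MHC class II genes, stood at 68.5 CPM in members and 20.8 CPM in other C1q-positive cells, a log2 ratio of 1.72 (1.52 to 1.92). Slamf8, a surface receptor of activated macrophages, gave 1.64, the uridine phosphorylase gene Upp1 1.56, and the activating IgG receptor gene Fcgr4 1.13. Among the guanylate-binding proteins, GTPases that attack vacuoles of intracellular pathogens, Gbp2 stood at 285 against 119 CPM, a log2 ratio of 1.26 (1.17 to 1.35), and Gbp4 at 38.8 against 13.6 CPM. The gene of the transcription factor Irf1 differed less, with a log2 ratio of 0.60. Cxcl10, which shares its receptor with Cxcl9, stood at 214 against 111 CPM (log2 ratio 0.95, 0.85 to 1.05) and was not called. Ido1, which degrades tryptophan, had no UMI in the members, where 3 counts are worth 0.388 CPM. Without the cluster of cells that held most members, described further on, the median of the list was 0.29. Against cells of neither class all 29 genes again lay above 0, with 13 called higher and a median of 0.93, where 0.79% of 9237 genes were called higher. The members were chosen in part on Cxcl9, itself induced by interferon-gamma, so part of these differences follows from the choice.

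GAS and ISRE elements are promoter sequences through which interferons act on their target genes. RefSeq promoter sequences, 250 bases before to 50 bases after the start of each gene on GRCm38.p6, were searched on both strands in the 250 bases before the start for TTCNNNGAA (GAS) and for GAAA, any 2 bases and GAAA again (ISRE); matches of the 2 may overlap. At least 1 match was found in 20 of the 23 interferon-gamma list genes with a sequence (87.0%), against 11.1% of 27025 genes. The share was 61.9% for the type I interferon list, 19.2% for the NF-kB and inflammatory list and 14.3% for the resident and alternative macrophage list. For the MHC class II list it was 12.5%, or 1 of 8 genes with a sequence. Among the 15 non-rule genes ranked highest in members over other C1q-positive cells, 10 had a sequence and 2 a match (20%). Among the 15 ranked lowest, 13 had a sequence and 1 a match (7.69%). Of the 4 summed genes of the rule, Cxcl9 and Gpr84 had a sequence and neither had a match. The stretches below show the matches in 4 genes of the list in capitals. A match is a description of the letters and not a measured binding site. Cxcl10 lies at chr5:92349073-92349122 on the minus strand with 1 ISRE match, Gbp2 at chr3:142620584-142620633 on the plus strand with 1 ISRE match, Gbp5 at chr3:142496684-142496910 on the plus strand with 2 GAS matches and 1 ISRE match, and Irf1 at chr11:53769904-53769952 on the plus strand with 1 GAS match. Each is written 5′ to 3′ in the direction of its gene.
Cxcl10: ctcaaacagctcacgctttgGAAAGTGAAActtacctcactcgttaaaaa
Gbp2: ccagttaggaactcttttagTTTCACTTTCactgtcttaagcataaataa
Gbp5: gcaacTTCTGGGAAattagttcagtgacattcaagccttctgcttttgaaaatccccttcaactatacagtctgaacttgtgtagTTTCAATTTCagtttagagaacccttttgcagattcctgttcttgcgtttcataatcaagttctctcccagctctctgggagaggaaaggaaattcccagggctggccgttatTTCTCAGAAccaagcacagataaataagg
Irf1: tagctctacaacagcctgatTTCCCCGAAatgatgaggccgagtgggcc

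Antigen presentation by MHC class II to CD4 T cells was represented by 11 genes, of which 10 could be compared. Ciita, the switch gene given above, is among the 10 and is counted in the interferon-gamma list as well. All 10 lay above 0, 7 were called higher and the median log2 ratio was 1.23. H2-Ab1, a class II beta chain, stood at 5799.5 CPM in members, 2673 CPM in cells of neither class, 1450.3 CPM in resident-like cells and 4148 CPM in monocytes. Members were the highest of these 4 classes, and their log2 ratio to other C1q-positive cells was 1.57 (1.55 to 1.59). The ratios were 1.42 for H2-Eb1, 1.41 for H2-Aa and 1.20 for Cd74, the invariant chain. Against resident-like cells alone 9 of the 10 genes were called higher, with a median of 1.63, beside 2.29% of 9664 genes called higher there. Against cells of neither class 8 of 10 lay above 0, 4 were called higher and the median was 0.83. MHC class I and peptide loading genes differed less, with 19 of 21 above 0, none called and a median of 0.46, or 0.17 without the cluster that held most members. In the type I interferon list, 20 of 23 genes lay above 0, 3 were called higher and the median was 0.48, or 0.28 without that cluster. The 3 called were Ifi205 (1.85), Zbp1 (1.11) and Rtp4 (1.10).

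In the NF-kB and inflammatory list, 26 of 27 genes lay above 0, 10 were called higher and the median was 0.78, or 0.43 without the cluster that held most members. Il1b, the precursor of the fever cytokine interleukin-1 beta, stood at 925 CPM in members, 397 CPM in cells of neither class, 135 CPM in resident-like cells and 1146 CPM in monocytes. Its log2 ratio to other C1q-positive cells was 1.92 (1.87 to 1.98), and monocytes had the highest level. Inhba, which encodes the activin A subunit, stood at 117 against 31.4 CPM (1.90, 1.74 to 2.06). Saa3, an acute-phase protein, had 130 UMIs in members, 16.8 CPM against 3.52 CPM in other C1q-positive cells and 3.77 CPM in monocytes. Acod1, which makes itaconate, gave 1.19, and the mitochondrial superoxide dismutase gene Sod2 gave 1.11. The prostaglandin enzymes Ptgs2 and Ptges gave 1.13 and 1.31, and the cytokine genes Il1a and Il27 1.20 and 1.09. Several classical cytokines were scarce: Tnf stood at 24.1 against 19.2 CPM (log2 ratio 0.32), Il6 at 1.29 CPM and Il12b at 0.906 CPM. Il10, an anti-inflammatory cytokine, stood at 2.33 and 2.61 CPM.

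**Figure D2:**
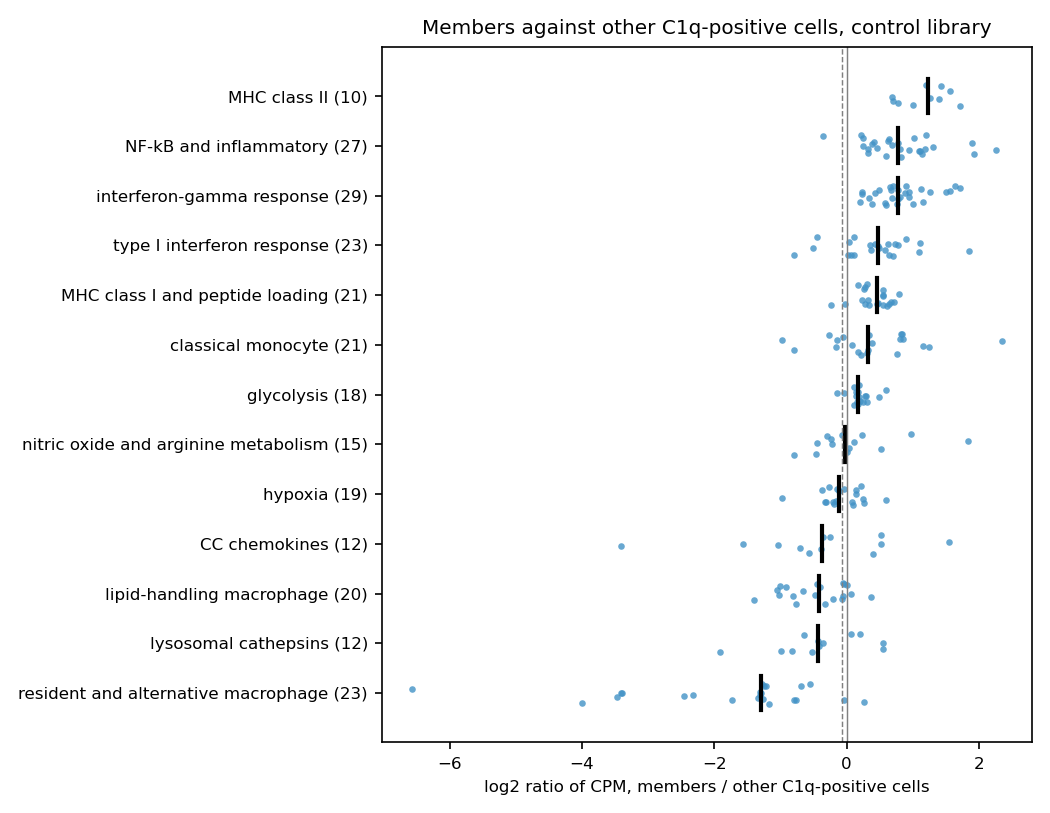
Log2 ratio of control members to other C1q-positive cells for each compared gene (points) in 13 gene lists, with the list median as a black bar, the median of all 10710 genes as a dashed line and 0 as a solid line. The interferon-gamma and MHC class II points all lie above 0, with medians of 0.77 and 1.23, and the resident and alternative macrophage median lies at -1.29.

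Among chemokines, Ccl5 was higher in the members, and 3 monocyte attractants were lower than in the other C1q-positive cells as a whole. Ccl5, which attracts T cells, stood at 842 CPM in members, 340.0 CPM in cells of neither class, 254 CPM in resident-like cells and 439.5 CPM in monocytes. It was the only one of 12 CC chemokines called higher (log2 ratio 1.55, 1.49 to 1.60), while Ccl7, Ccl8 and Ccl12 were called lower at -1.04, -3.41 and -1.57. The list median was -0.37. Against cells of neither class none of the 12 was called lower, with log2 ratios of -0.46 for Ccl7 and 0.25 for Ccl12 and Ccl8 at 56.6 against 113 CPM. Cxcl16, a ligand of Cxcr6 on activated T cells, stood at 694 CPM against 412 CPM and 399 CPM in monocytes, and no gene of the CXC list was called.

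In the complement list 4 of 13 genes lay above 0, with a median of -0.19. C3, the protein that factor B joins in the alternative pathway convertase, was the 1 gene called higher, at 357 CPM in members, 111 CPM in cells of neither class, 105 CPM in resident-like cells and 244 CPM in monocytes (log2 ratio 1.50, 1.42 to 1.59). C3 was seen more often in members with Cfb. In thinned counts C3 had a UMI in 53.6% (46.6 to 60.4) of the 211 members with Cfb and in 33.5% (29.3 to 37.8) of the 490 without it.

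Arg1 was abundant in all classes, at 9359 CPM in members, 9299 CPM in other C1q-positive cells and 7644 CPM in monocytes, with a log2 ratio of 0.01 to the other C1q-positive cells. Nearly all members had a UMI of it: in thinned counts Arg1 had a UMI in 92.6% of the 135 members with Nos2 and in 92.6% of the 566 without, shares too near their ceiling to compare levels. The background of Arg1 in T cells was not measured, so a UMI need not mean that the cell itself makes it. Ass1, which regenerates arginine from citrulline, was the only 1 of 15 nitric oxide and arginine genes called higher, at 188 against 53.0 CPM (log2 ratio 1.83, 1.71 to 1.95). It had a UMI in 37.0% of members with Nos2 (28.9 to 45.8) and in 26.0% of those without (22.4 to 29.8), intervals that overlap. Gch1, which starts synthesis of the cofactor of Nos2, gave 0.52, and the arginine transporter gene Slc7a2 -0.24. The list median was -0.02.

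Of the 15 non-rule genes with the largest ratios, Ly6i came first. This Ly6 family surface protein gene stood at 298 CPM in members, 60.3 CPM in cells of neither class, 39.6 CPM in resident-like cells and 264 CPM in monocytes (log2 ratio to other C1q-positive cells 2.36, 2.25 to 2.47). Its reads can be shared with near-identical Ly6 genes such as Ly6c2, so the split between them is uncertain. The other genes of this group not yet given were Ly6a (1.60), which encodes Sca-1, Ifitm1 (1.52), a restriction factor for enveloped viruses, and Slpi (1.62), an inhibitor of leukocyte proteases.

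Genes of resident and alternatively activated macrophages were lower in the members. Of 23 compared, 22 lay below 0, 17 were called lower and the median was -1.29. Since cells with Folr2, Cbr2 or Fcrls were left out of the members by the rule, part of this follows from the choice: against cells of neither class 19 of 21 lay below 0, 2 were called lower (of 9237 genes, 1.26% were) and the median was -0.53. Against resident-like cells alone 18 were called lower, where 3.41% of 9664 genes were, and the median was -1.68. Retnla, a secreted protein of alternatively activated macrophages, stood at 5.70 CPM in members and 175 CPM in resident-like cells, and the chemokine Ccl8 at 56.6 and 1016 CPM. Mrc1, the mannose receptor CD206, stood at 219.6 and 659 CPM, and Pf4, a platelet-type chemokine, at 1092 and 3218 CPM. The gene of the transcription factor Maf gave -1.22 against other C1q-positive cells. Lyve1, a hyaluronan receptor of perivascular macrophages, had 1 UMI in all members.

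Lipid-handling genes differed in part, with 17 of 20 below 0, 4 called lower and a median of -0.42. Apoe, which carries cholesterol out of cells, stood at 3580.0 against 7419 CPM (-1.05), Gpnmb gave -1.40, Cd63 -1.02 and Pltp -1.01. Spp1, which encodes osteopontin, stood at 2705 and 2820.1 CPM (-0.06), and the lipid receptor gene Trem2 at 255 and 354 CPM (-0.47). The remaining genes at the low end included Timp2 (-1.93), an inhibitor of matrix proteases, and Igf1 (-2.32), a growth factor. Birc5 (-2.34), Pclaf (-2.28) and Stmn1 (-1.62) are genes of dividing cells, which the rule left out.

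Glycolysis genes lay above 0 in 16 of 18 cases with a median of 0.18, and hypoxia genes in 8 of 19 with a median of -0.12, and none of either list was called. Checkpoint and regulatory ligands lay close to the other C1q-positive cells as a list, with a median of 0.01 over 19 genes and none called. Cd274, which encodes PD-L1, stood at 97.9 against 57.3 CPM, a log2 ratio of 0.77.

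Against monocytes the inflammatory lists had medians closer to 0 than against other C1q-positive cells. Of 9868 genes, 85 were called higher in members (0.861%) and 197 lower (2%), and the median was -0.02. Without genes of the rule the counts were 81 and 196. The interferon-gamma list lay above 0 in 20 of 29 genes with a median of 0.21, which was 0.48 in thinned counts and turned to -0.09 without the cluster that held most members, and the NF-kB list in 15 of 27 with a median of 0.02. The type I interferon list lay below 0 in all 23 genes, 5 of them called lower, with a median of -0.56. Monocyte genes were lower, with 20 of 21 of the classical list below 0, 9 called, and a median of -0.72, and all 9 of the nonclassical list below 0, 8 called, and a median of -2.10. Ly6c2 and Ccr2, members of the classical list, chose the monocytes, so their levels there are set by that choice. The monocyte class was mixed. In the clustering described further on, 293 of its 1358 cells lay in the cluster led by Adgre4, Ace and Treml4. Another 78 lay in a cluster with the dendritic markers Cd209a, Flt3 and Clec9a among its leading genes. Against monocytes with a sum of 2 or more the nonclassical median was -0.87.

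Among the genes highest over monocytes, Ccl8 stood at 56.6 against 16.8 CPM (log2 ratio 1.75) and Ccl12 at 122 against 48.3 CPM (1.34). Iigp1, an interferon-induced GTPase, stood at 83.4 against 27.9 CPM (1.58). The macrophage gene Ms4a7 gave 1.28, the tetraspanin genes Cd63 and Cd81 1.12 and 1.07, and Timp2 1.11. All 12 lysosomal cathepsin genes lay above 0, with a median of 0.41. At the other end stood Ifitm6 at 6.34 against 116 CPM (-4.20), Plac8 at 297 against 1492 CPM (-2.33), the haptoglobin gene Hp (-2.64) and the nuclear receptor gene Nr4a1 (-2.10). Ifitm6, Hp and Nr4a1 are among the leading genes of the cluster led by Adgre4, Ace and Treml4. The part of the mixed monocyte class in these ratios was not tested.

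The 556 monocytes with a sum of 2 or more had high levels of the same inflammatory genes. Cxcl9 stood at 1369.8 CPM in them and 1140.2 CPM in the members, and Nos2 at 145 and 167 CPM. Both classes were chosen on these transcripts. Of genes outside the rule, Ly6i stood at 423 and 298 CPM, Il1b at 1357 and 925 CPM, and H2-Ab1 at 5343 and 5799.5 CPM. The interferon-gamma list had a median of -0.11 and the NF-kB list of -0.24 in members against these monocytes, where 0.833% of 9128 genes were called higher and 0.57% lower. Cxcl10 stood at 406 CPM in these monocytes against 214 CPM in members. Within the monocytes the sum went with the same list: 25 of 28 interferon-gamma genes lay above 0 in those with a sum of 2 or more over the other 802, 8 of them called higher, with a median of 0.63, where 1.21% of 8707 genes were called higher and 2.94% lower. The sum holds Cxcl9, itself induced by interferon-gamma, so this difference is set in part by the split.

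**Figure D3:**
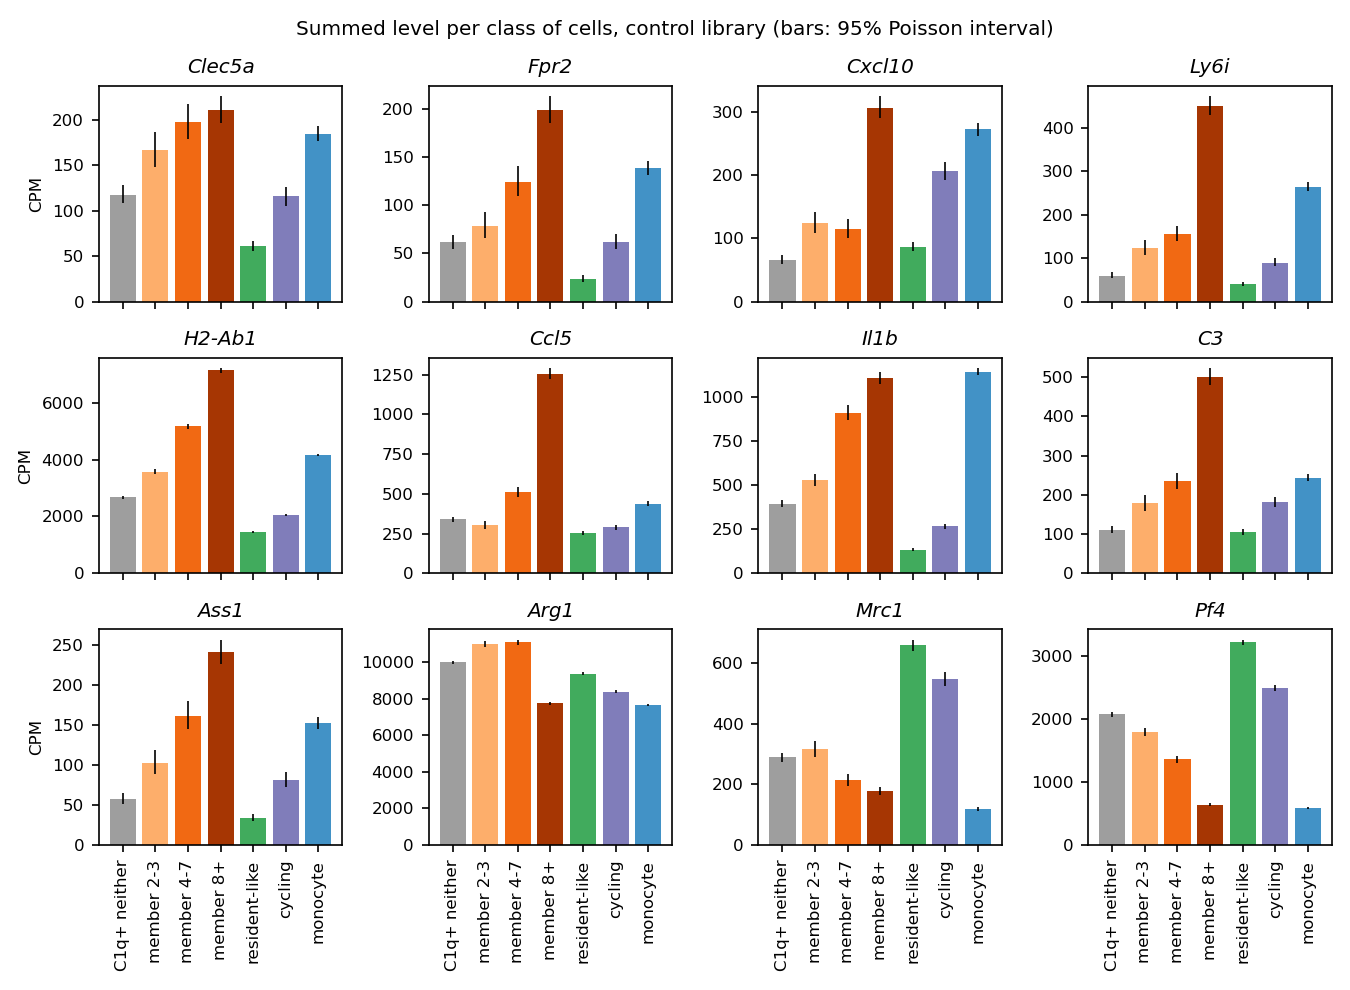
Levels (CPM, bars, with exact 95% Poisson intervals) of 12 genes in control cells of neither class, in members with a sum of 2 or 3, 4 to 7 and 8 or more, and in resident-like cells, cycling cells and monocytes. Ly6i, Ccl5 and C3 are highest in members with a sum of 8 or more, whereas Pf4 and Mrc1 are highest in resident-like cells.

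The members differed among themselves with the sum of the 4 genes. The 343 members with a sum of 8 or more were set beside the 221 with a sum of 2 or 3, and of 7136 genes 107 were called higher (1.5%) and 62 lower (0.869%). Without genes of the rule the counts were 103 and 62. The interferon-gamma list lay above 0 in all 27 genes, 13 of them called, with a median of 0.91, beside a median of -0.01 over all genes. Cxcl9, itself induced by interferon-gamma, supplied 70.2% of the UMIs of the sum in all members, so this difference is set in part by the split. The sum was not scaled to depth, and the part of depth was not tested. MHC class II lay above 0 in all 8 genes with a median of 0.93, MHC class I in all 21 with 0.77 and type I interferon genes in all 17 with 0.76. Ccl5 stood at 305 CPM at a sum of 2 or 3, 509 CPM at 4 to 7 and 1257 CPM at 8 or more, and Ly6i at 124, 156 and 451 CPM. Fpr2 stood at 78.8, 124 and 199 CPM, while Clec5a differed less, at 167, 197 and 211 CPM. In the other direction Arg1 stood at 10969.9 and 11072 CPM and then 7742 CPM, Ccl2 at 624, 644 and 286 CPM, and Pf4 at 1790.1 and 637 CPM in the lowest and highest sums. The resident list median was -0.38.

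The members were divided by whether they held Nos2 and Cxcl9. Of the 753, 370 had Cxcl9 and no Nos2 (49.1%), 209 had both (27.8%), 91 had Nos2 and no Cxcl9 (12.1%) and 83 had neither (11.0%). The median depth was 6915 UMIs in the first class, 11357 in the second and 9980 in the third, and a missing transcript in a shallow cell need not mean that the gene is off. Since the sum of these genes chose the members, how often they occur together is set in part by that choice. In thinned counts Cxcl10 had a UMI in 23.4% of members with Cxcl9 (19.3 to 28.0) and 9.03% of those without (6.13 to 12.7), and Arg1 in 89.5% (85.9 to 92.4) and 96.3% (93.6 to 98.1).

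The 91 members with Nos2 and no Cxcl9 had higher levels of hypoxia, metal and matrix genes than the 370 with Cxcl9 and no Nos2, and lower levels of interferon-gamma and MHC class II genes. Of 6400 genes, 106 were called higher (1.66%) and 103 lower (1.61%), with a median of -0.05. Without genes of the rule the counts were 105 and 102. In the hypoxia list 15 of 16 genes lay above 0, 8 were called and the median was 0.99. Hilpda, a lipid droplet protein, stood at 308 CPM with Nos2 alone and 72.5 CPM with Cxcl9 alone (log2 ratio 2.09, 1.84 to 2.33), and Egln3, an oxygen-sensing hydroxylase, at 93.8 and 27.5 CPM. Vegfa, the vessel growth factor, stood at 97.9 and 42.6 CPM. Glycolysis genes lay above 0 in 17 of 18 cases with a median of 0.54, and Slc2a1, the glucose transporter GLUT1, stood at 269 and 131 CPM.

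Matrix genes had a median of 0.53, with 5 of 13 called higher and 1 lower. Mmp12, the macrophage elastase, stood at 1309.7 CPM with Nos2 alone and 233 CPM with Cxcl9 alone (2.49, 2.36 to 2.62), and Timp1, a protease inhibitor, at 78.7 and 192 CPM. Inhba stood at 269 and 33.4 CPM (3.01, 2.69 to 3.34), Spp1 at 4720.1 and 1668 CPM, and Arg1 at 14593 and 6952 CPM. The metallothionein and NRF2 list had a median of 0.72, with Hmox1, which degrades heme, at 225 and 77.3 CPM. The neutrophil attractant Cxcl2 stood at 578 and 158 CPM.

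The members with Cxcl9 and no Nos2 had the higher interferon-gamma genes. Cxcl9 is itself induced by interferon-gamma, so this difference is set in part by the split. In the direction of Nos2 over Cxcl9, 1 of 26 interferon-gamma genes lay above 0 and 7 were called lower. Their median was -0.81, or -0.39 in thinned counts. For MHC class II the figures were 0 of 8, 3 and -0.92, the median being -0.36 in thinned counts. The median sum of the 4 genes was 4 with Nos2 alone and 7 with Cxcl9 alone. Both lists were higher in members with larger sums, and the part of the sum here was not tested. Cxcl10 stood at 39.4 CPM with Nos2 alone and 265 CPM with Cxcl9 alone (-2.75, -3.25 to -2.29), and Gbp2 at 119 and 292 CPM. Ccl17, a ligand of Ccr4, had 7 UMIs with Nos2 alone and 511 with Cxcl9 alone. Cd274 was an exception in the list, at 119 and 81.4 CPM (0.55).

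**Figure D4:**
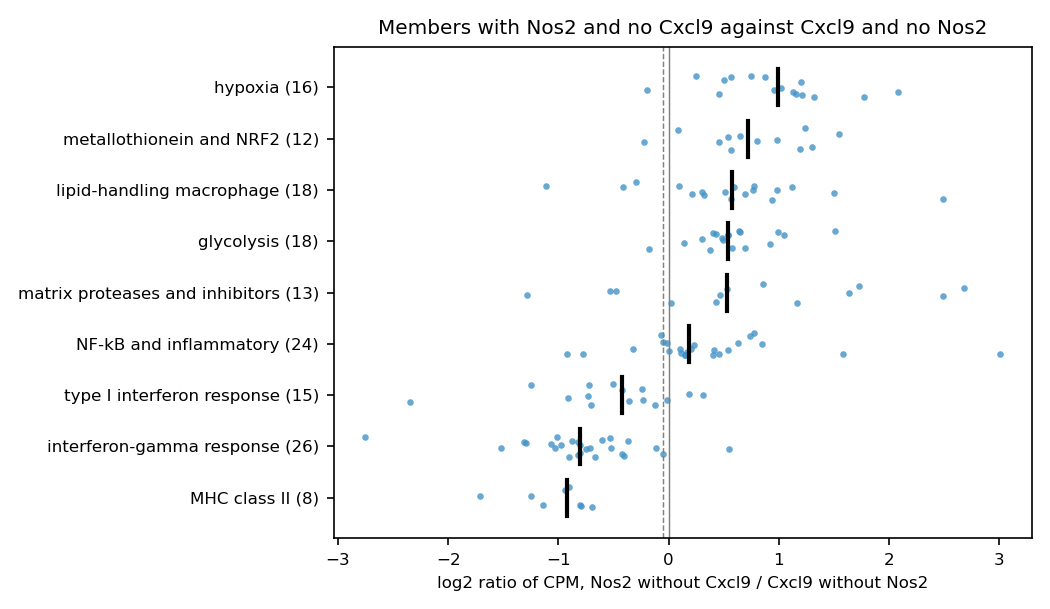
Log2 ratio of the 91 control members with Nos2 and no Cxcl9 to the 370 with Cxcl9 and no Nos2 for each compared gene (points) in 9 lists, with list medians as black bars, the median of all 6400 genes dashed and 0 as a solid line. The hypoxia median is 0.99 and the interferon-gamma and MHC class II medians are -0.81 and -0.92.

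Members, other C1q-positive cells and monocytes of the control library were also clustered without the 15 genes of the rule. Each of the 18 clusters held at least 1 member, and in none were members the majority. The cluster with most of them, led by Ly6i, Fpr2, C3, Acod1 and AW112010, held 250 members (33.2%), 210 monocytes, 2.53% of the cells of neither class and 3.26% of the resident-like cells. Of its 513 cells 90.6% had a sum of 2 or more, and 184 of its monocytes did. A second cluster, led by B3gnt7, Serf1 and Clec5a, held 137 members (18.2%), another, led by Ccl24, Ccl2 and Ccl7, held 77, and one led by Mmp12, Spp1 and Thbs1 held 68. Of the members with Nos2 and no Cxcl9, 25 of 91 lay in the cluster led by Mmp12, and of those with Cxcl9 and no Nos2, 114 of 370 lay in the one led by Ly6i. The cluster led by Ccl12 and Ccl8 held 47.5% of resident-like cells and 4.52% of members, and the one led by Adgre4, Ace and Treml4 held 21.6% of monocytes and 1 member.

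**Figure D5:**
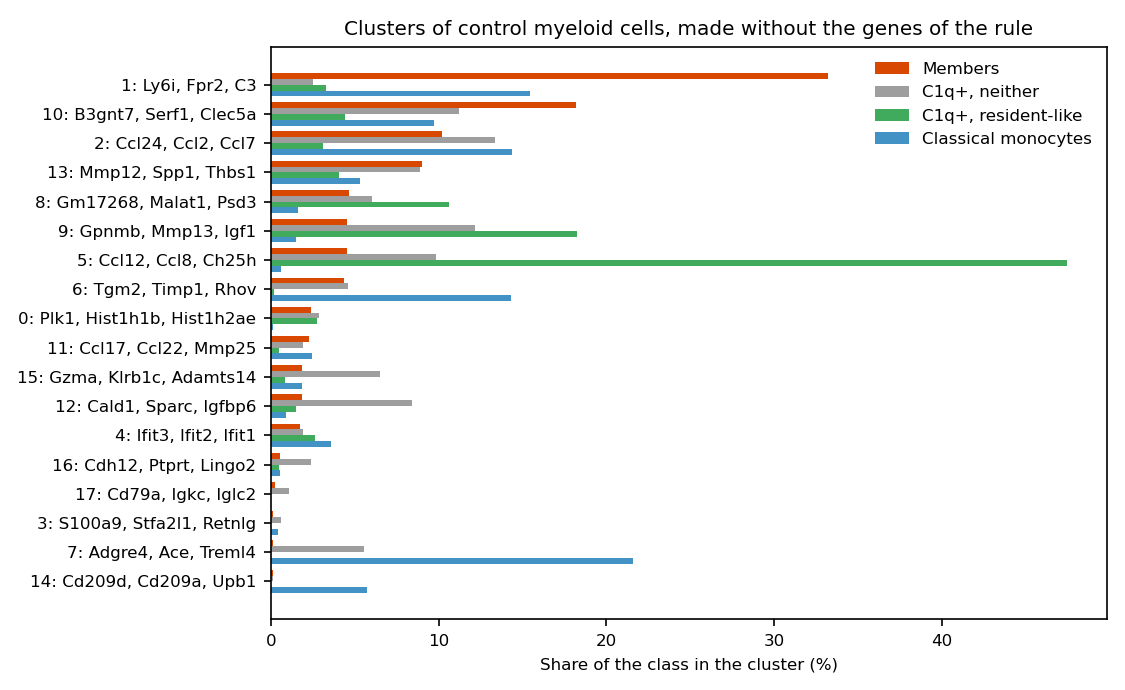
Share of each class of control cells (percent) in each of 18 clusters made without the genes of the rule. The cluster led by Ly6i, Fpr2 and C3 holds 33.2% of members and 15.5% of monocytes, and the cluster led by Ccl12 and Ccl8 holds 47.5% of resident-like cells.

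Markers of other cells were read as summed levels over each list. In the control members all 13 T cell markers had a UMI, with a sum of 154 CPM against 164 CPM in other C1q-positive cells and 166 CPM in monocytes. All 10 NK markers summed to 273, 281 and 221 CPM in the same order, all 10 B cell markers to 38.8, 45.6 and 72.6 CPM, and 11 of 12 neutrophil markers to 364, 233 and 375 CPM, with Ly6g at 0 in members. The neutrophil list holds Acod1 and Mmp8, which macrophages also make. The dendritic list summed to 35.1, 36.6 and 122 CPM with Xcr1 at 0 in members, and in the epithelial and tumour list Krt8, Krt18, Krt19 and Cldn7 were at 0. The 5 clusters with at least 2 markers of 1 other cell type among their 10 leading genes held 32 of the 753 members. Of these clusters, the one led by Cald1 and Sparc held 14 members and 70 of the 831 cells of neither class. The one led by Gzma and Klrb1c held 14 members and 54 cells of neither class. In cells of neither class the NK markers summed to 524 CPM and the B cell markers to 91.4 CPM, both more than in the members. A cluster led by Ccl17 and Ccl22, with Ccl22 its only dendritic marker among those 10, held another 17. Scrublet called 8 members (1.06%) and 20 other C1q-positive cells (1.19%) doublets. Its call rate in the whole control library, 0.970%, was well under the 8.99% expected for its number of barcodes, so doublets may be missed.

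In the PBM library the 11 members were few and shallow, with 1353 to 11022 UMIs and a median of 3342. All 11 had Cfb, with 76 UMIs in all against 6 in the other 27 C1q-positive cells. Cxcl9 was seen in 5, with 35 UMIs against 1, and Nos2 and Gpr84 in 2 each, with 3 UMIs each. The gaps to the other 27 cells are fixed by the rule, since 19 of these had a sum of 0 and 8 a sum of 1. In the control library Cfb was present in 56.2% of members and Cxcl9 in 76.9%, at a median of 8784 UMIs. The background also differed, since a sum of 2 or more was found in 0.170% of PBM T cells at a median of 5281 UMIs and in 13.4% of control T cells.

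Of 252 genes with enough UMIs in the PBM C1q-positive cells, 22 were called higher in its members (8.73%) and 5 lower (1.98%), with a median log2 ratio of 0.14. Without genes of the rule the counts were 20 and 5. C3, with too few UMIs to be among these 252, had 28 in the members and 9 in the other 27 cells. Aif1, a calcium-binding protein of macrophages, had 105 and 48 UMIs (1.79). Arg1 had 28 UMIs in the members, 27 of them in 1 cell, and 144 in the other cells. H2-Ab1 was seen in all 11 members, with 2 to 47 UMIs. Of 47 genes that could be compared in both libraries, 24 had the same sign in the 2.

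B cell transcripts stood beside these values: the B cell list summed to 1347 CPM in the PBM members and 2377 CPM in the other PBM C1q-positive cells, with 9 of 10 markers seen in members and Pax5 at 0. T cell markers summed to 746 and 1097 CPM. Dendritic markers summed to 216 CPM (99.0 to 411) in the members and 91.4 CPM (33.6 to 199) in the other cells. Of 12 such markers 4 had a UMI in the members, with Batf3 the highest at 120 CPM. NK markers summed to 48.1 and 168 CPM, and Nkg7 was the only 1 seen in the members. Neutrophil, Sparc-led, epithelial and tumour, erythroid and mast cell markers were at 0 in the 11 members, each sum with an upper bound of 88.7 CPM. None of the 11 was called a doublet. The part of the B cell, T cell, dendritic and NK transcripts in the PBM levels was not tested.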

How the data were processed

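CD45-positive cells of 1 control and 1 PBM tumour pool were profiled by single-cell RNA sequencing with a 10x Genomics 3′ kit on a NovaSeq, per the labels. The authors deposited UMI counts as whole numbers for each gene in each barcode, without normalization. Cell Ranger 7.2.0 and mm10 are named in the submitters' processing notes, whereas PISA 0.12 is named per the file headers, and which of them made the counts is not settled. No barcode had fewer than 1002 UMIs (control) or 1005 UMIs (PBM), and none was filtered further.

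The rule for the members was applied to the deposited counts, with monocytes gated also on at most 1 UMI of Cd79a and Ms4a1, of Ncr1 and Klrb1c, and of Mki67 and Top2a. UMIs were summed per class, scaled to CPM and compared as log2 ratios with exact intervals (scipy 1.17.1, Python 3.11.15), which were tested on simulated data. Scrublet (scanpy 1.11.5) marked doublets per library, at a rate of 0.8% for every 1000 barcodes, and marked barcodes were kept. Clusters came from 2000 variable genes, 30 components, 15 neighbours and Leiden resolution 1 (igraph 0.11.9). Genes named are the 15 with the largest ratio in each direction against other C1q-positive cells and the 10 against monocytes, with at least 100 UMIs over both groups, at least 50 CPM in either, intervals apart and no gene of the rule, mitochondrial or ribosomal protein gene, and any gene of 25 function and 9 other-cell lists. Csf1r, Adgre1 and Cd68 were added to check the label. Members, rule and lists were chosen with earlier results of these data known. Promoter sequences are RefSeq's. Alternatives were a sum of at least 4, C1q genes at 0.2%, counts thinned to 2000 UMIs, cells of neither class as comparison, doublets left out, mean over cells, centred ratios, a minimum of 200 UMIs and, added after seeing the data, leaving out clusters led by other cell types or the cluster that held most members.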

Additional observations from a re-analysis of the deposited data

Results flagged for a closer look

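For 9 genes the log2 ratio of members to other C1q-positive cells had opposite signs in the PBM and the control library, with both intervals clear of 0. The difference was not tested, and the PBM values rest on 11 and 27 cells. Higher in PBM members and lower in control members were Apoe (1.09 in PBM, 0.58 to 1.60, against -1.05 in control), the lysosomal protease gene Ctsd (1.62 against -0.52), the fatty acid carrier gene Fabp5 (1.26 against -0.81), the lysozyme gene Lyz2 (0.88 against -0.14), the receptor gene Sirpa, whose product binds CD47 (1.41 against -0.13), and Tmem176b (1.81, 1.07 to 2.59, against -0.52). Lower in PBM members and higher in control members were the glycolytic enzyme gene Aldoa (-1.06 against 0.14), Plac8 (-0.67 against 0.82) and S100a6 (-0.45 against 0.34). The UMIs behind the PBM values ran from 17 against 56 for Aldoa to 187 against 160 for Lyz2, in members against other cells. The PBM other cells carried more B cell transcripts than the PBM members, at 2377 against 1347 CPM, and the part of this in the 9 genes was not tested.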

How the results depend on the processing

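Signs held in 299 of 300 values of the named genes against other C1q-positive cells, in 180 of 180 against monocytes and in 48 of 48 between members with Nos2 or Cxcl9 alone; for list medians the figures were 231 of 250, 207 of 225 and 131 of 150. The exception among genes was Ccl12, at 0.25 against cells of neither class. The cause of the following shifts was not tested. With a sum of at least 4 the members were 4.73% of barcodes and 21.8% of C1q-positive cells, the NF-kB median was 0.93, the resident median -1.40 and the CC chemokine median against monocytes turned to -0.13. With C1q genes at 0.2% the share of barcodes was 5.53%, the CC chemokine median against monocytes turned to -0.036 and the glycolysis median of Nos2 over Cxcl9 was 0.42. With counts thinned to 2000 UMIs the classes were redrawn, and the members were 22.1% of C1q-positive cells. There 197 genes were lower, the interferon-gamma median was 1.11 and the resident median -0.92. The immediate early median turned to -0.051 and the CXC median against monocytes turned to 0.54. In the same thinned counts the medians of Nos2 over Cxcl9 were -0.80 for CC chemokines and -0.12 for pattern recognition receptors, both turned, and -0.36 for MHC class II. Against cells of neither class 116 genes were lower, and the medians were 0.83 for MHC class II, -0.53 for resident genes and -0.084, turned, for immediate early genes. The count of lower genes was 725 with the mean over cells and 175 with at least 200 UMIs. Leaving out the cluster that held most members, an alternative chosen after seeing the data, gave 57 higher genes, medians of 0.29 for interferon-gamma, 0.43 for NF-kB and 1.02 for MHC class II, and a turned CC chemokine median of Nos2 over Cxcl9 of -0.30.

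No paired analysis was possible because each group has 1 library and the labels carry no replicate numbers, and for the same reason no library was left out in turn. Depth limits the PBM values, since its 11 members hold 41578 UMIs in all and 3 counts there are worth 72.2 CPM.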
